A study of Mus musculus with 6 samples.

Results

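The genes described here are 10 transcription factors of mesenchymal cells and of the epithelial to mesenchymal transition (EMT), namely Twist1, Twist2, Snai1, Snai2, Zeb1, Zeb2, Prrx1, Prrx2, Foxc1 and Foxd1. They were taken from the deposited expression table wherever the array annotation gave a probe set exactly 1 gene symbol. All 10 were found among the 19938 genes measured in this way, and each had 1 probe set. RNA came from immortalized neural precursor-like cells with a homozygous deletion of Lgi1 (knock-out) and from cells of the same kind that are wild type for Lgi1. Both were derived from embryo brain of the C57BL/6J strain at embryonic day 13.5 and, once immortalized, were kept in RPMI with 1% FBS. Affymetrix Mouse Gene 1.0 ST arrays were used, 3 for each genotype, and the comparison asks which transcripts differ between the genotypes. The labels name the replicates of a genotype biological. How many embryos or lines they came from is not stated, nor is the agent of immortalization, so p-values reflect the spread among these 6 samples alone, and that spread may be technical.

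EMT is the change by which cells of a sheet loosen their junctions, become motile and take on a mesenchymal state, and neural crest cells use it to leave the neural tube. Snail factors (Snai1, and Snai2 or Slug) and Zeb factors are zinc finger proteins that bind E-boxes, short sites of the form CANNTG, and repress epithelial genes such as that of E-cadherin. Twist factors are basic helix-loop-helix (bHLH) proteins that pair with E proteins. Prrx factors are paired-related homeodomain proteins of limb and craniofacial mesenchyme. Foxc1 and Foxd1 are forkhead factors, of which Foxc1 is needed for the meninges of the mouse and Foxd1 is known from kidney stroma and the developing retina.

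The deposited log2 values had nearly the same median on all 6 arrays (6.36 to 6.41). Across all probe sets, Pearson's r between 2 arrays was 0.968 to 0.971 where the genotypes differed and 0.993 to 0.995 where they were the same. Lgi1, the deleted gene, had log2 values of 4.53, 4.57 and 4.54 on the knock-out arrays and 4.61, 4.75 and 4.94 on the wild-type arrays. The difference of −0.22 on the log2 scale did not pass (limma adjusted p = 0.075), but did so with a block on replicate numbers (adjusted p = 0.046), with an intensity trend and robust moderation (0.046), with median centring (0.040) and without wild-type replicate 1 (0.018). All 6 values lie at background, taken here as 5.67, the 95th percentile of 1190 genes for olfactory or vomeronasal receptors, whose place of action is the nose. Lgi1 therefore did not check the genotype labels. Xist, the RNA of the inactive X chromosome, averaged 12.44 in knock-out and 4.64 in wild-type cells, and the Y-linked Eif2s3y averaged 4.67 in knock-out and 10.19 in wild-type cells. The genotypes thus also differ in the expression of sex-linked genes, and the deletion, the sex-linked difference and the lines behind the arrays cannot be told apart. Of 15 measured markers of neural progenitors 2 rose (1 without knock-out replicate 1 or 3 or wild-type replicate 3) and 5 fell. Sox2, which maintains neural progenitors, averaged 5.35 in knock-out and 11.26 in wild-type cells, and Pax6, a further progenitor factor, 5.44 in knock-out and 7.12 in wild-type cells. Both means were under background in knock-out cells, whereas Nes, the intermediate filament gene of progenitors, averaged 8.72 in knock-out and 10.73 in wild-type cells, and Fabp7, a radial glial fatty acid binding protein, 5.91 in knock-out and 9.12 in wild-type cells. The defining markers Sox2 and Pax6 thus go against the label neural precursor-like for the knock-out cells, while Nes and Fabp7 fell and stayed above background. The list as a whole was mixed, with 8 markers not called, a median log2 fold change of −0.043 and a largest rise of 1.06.

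Of the 10 factors 8 rose in knock-out cells, Zeb2 fell and Snai1 was not called (limma, adjusted p under 0.05 over all genes). Over all genes tested 31.6% were called, 14% as higher and 17.6% as lower. At least 2-fold rises were found for 5 of the 10, which were Foxc1, Foxd1, Snai2, Prrx1 and Twist2, against 3.05% of all genes. No member fell at least 2-fold, as 2.27% of all genes did. The median log2 fold change, knock-out minus wild type, was 1.07 over the 10 factors and −0.012 over all genes. All 3 knock-out arrays lay above all 3 wild-type arrays for 8 members and below them for 1, against 18.5% and 23.7% of all genes. Because the factors were chosen with earlier results of these data known, their excess over all genes is a description and no independent evidence. Since bulk RNA was measured, more RNA per cell and a larger share of cells with that RNA cannot be told apart.

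**Figure D1:**
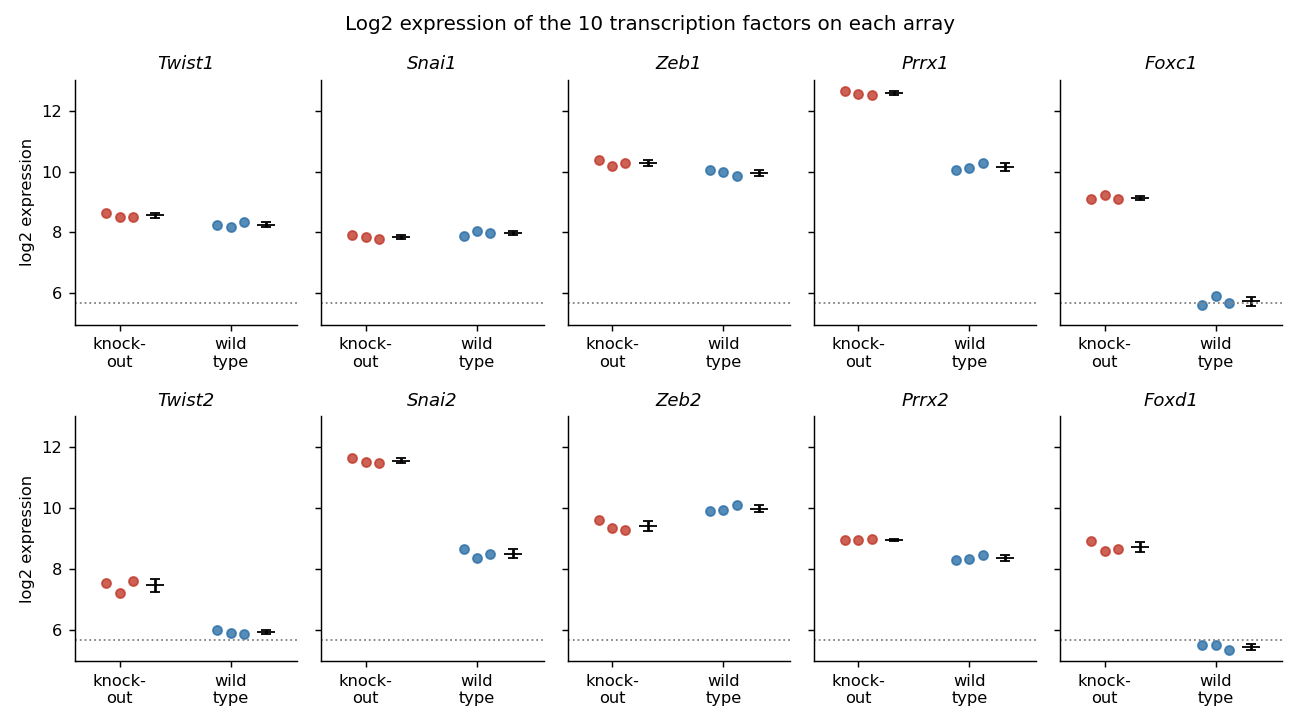
Log2 expression of each of the 10 transcription factors on every array, with knock-out arrays (red) left of wild-type arrays (blue). Black bars give the mean and SD (n = 3 each), and the dotted line is the background level of 5.67. The arrays of the genotypes overlap for Snai1 alone, and the wild-type values of Foxc1 and Foxd1 lie close to the dotted line.

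The forkhead factors had the largest fold changes of the group. Foxc1 (probe set 10404407, chromosome 13) had log2 values of 9.10, 9.22 and 9.10 on the knock-out arrays and 5.63, 5.91 and 5.69 on the wild-type arrays. All knock-out arrays were high, and the wild-type arrays stood close to background. The log2 fold change was 3.40 (SE 0.08, limma adjusted p = 6.2e-10), or 10.5-fold. Foxd1 (probe set 10406845, chromosome 13) had 8.93, 8.60 and 8.66 on the knock-out arrays and 5.50, 5.49 and 5.33 on the wild-type arrays. The groups were again far apart, and the wild-type mean of 5.44 lay under the background level, so that background limits this fold. The log2 fold change of Foxd1 was 3.29 (SE 0.09, limma adjusted p = 1.7e-09).

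The Snail pair split. Snai2 (probe set 10433776, chromosome 16), the family member of migrating neural crest in the chick and of many mesenchymal cells, had 11.65, 11.53 and 11.50 on the knock-out arrays and 8.66, 8.37 and 8.50 on the wild-type arrays. It was well above background in both genotypes and higher on every knock-out array, by 3.05 on the log2 scale (SE 0.08, limma adjusted p = 1.3e-09), or 8.27-fold. Snai1 (probe set 10478884, chromosome 2), which mouse embryos need to pass gastrulation, had 7.90, 7.86 and 7.78 on the knock-out arrays and 7.89, 8.03 and 7.99 on the wild-type arrays. These arrays overlapped. The log2 difference was −0.12 with a 95% interval of −0.27 to 0.023 (limma adjusted p = 0.21), which leaves out a rise of the size seen for Snai2.

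Both Prrx genes rose, by unequal amounts. Prrx1 (probe set 10359624, chromosome 1), which marks limb and craniofacial mesenchyme, had 12.65, 12.56 and 12.52 on the knock-out arrays and 10.04, 10.13 and 10.29 on the wild-type arrays. It was thus well above background in wild-type cells and higher still in knock-out cells, with a log2 fold change of 2.43 (SE 0.08, limma adjusted p = 3.8e-09), or 5.38-fold. Prrx2 (probe set 10471067, chromosome 2), its paralog in the same tissues, had 8.94, 8.95 and 8.98 on the knock-out arrays and 8.29, 8.35 and 8.46 on the wild-type arrays. The groups did not overlap, and the log2 fold change was 0.59 (SE 0.06, limma adjusted p = 5.3e-05), or 1.51-fold.

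The Twist genes showed the same kind of split as the Prrx genes. Twist2 (probe set 10348632, chromosome 1), also called Dermo1 and known from dermal and bone-forming mesenchyme, had 7.56, 7.23 and 7.62 on the knock-out arrays and 6.01, 5.91 and 5.86 on the wild-type arrays. The wild-type values stood just above background and all knock-out values above them, for a log2 fold change of 1.54 (SE 0.10, limma adjusted p = 9.7e-07), or 2.91-fold. Twist1 (probe set 10395320, chromosome 12), which cranial mesenchyme needs for closure of the neural tube, had 8.64, 8.51 and 8.52 on the knock-out arrays and 8.23, 8.18 and 8.35 on the wild-type arrays. The separation was small yet complete, with a log2 fold change of 0.31 (SE 0.07, limma adjusted p = 0.0069), or 1.24-fold.

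The Zeb genes moved in opposite directions by small amounts. Zeb1 (probe set 10453678, chromosome 18), a repressor of epithelial genes, had 10.37, 10.20 and 10.28 on the knock-out arrays and 10.05, 9.98 and 9.85 on the wild-type arrays. Every knock-out array was the higher, and the log2 fold change was 0.32 (SE 0.07, limma adjusted p = 0.0075). Without moderation of the variances Zeb1 did not pass (adjusted p = 0.059, against 0.0041 to 0.033 over 15 further fits). Zeb2 (probe set 10482448, chromosome 2), which acts in neural crest formation and in the developing cortex, had 9.62, 9.36 and 9.30 on the knock-out arrays and 9.90, 9.93 and 10.12 on the wild-type arrays. Here every knock-out array was the lower. Zeb2 fell by 0.56 on the log2 scale (SE 0.09, limma adjusted p = 0.0011), or 1.47-fold. Zeb2os, the antisense gene beside it, averaged 5.22 ± 0.114 in knock-out and 5.26 ± 0.0709 in wild-type cells (SD, n = 3 each), under background, and was named after its values were seen.

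In order of their fold changes the factors were Foxc1, Foxd1, Snai2, Prrx1, Twist2, Prrx2, Zeb1, Twist1, Snai1 and Zeb2. The 95% intervals overlapped for the neighbours Foxc1 (3.22 to 3.58) and Foxd1 (3.08 to 3.50), and for Foxd1 and Snai2 (2.86 to 3.23). Prrx1 (2.26 to 2.60) and Twist2 (1.32 to 1.76) each stood clear of both neighbours. Prrx2 (0.45 to 0.74) overlapped Zeb1 (0.15 to 0.49), and Zeb1 overlapped Twist1 (0.15 to 0.46). Snai1 lay apart from Twist1 above it and from Zeb2 (−0.77 to −0.35) below it.

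**Figure D2:**
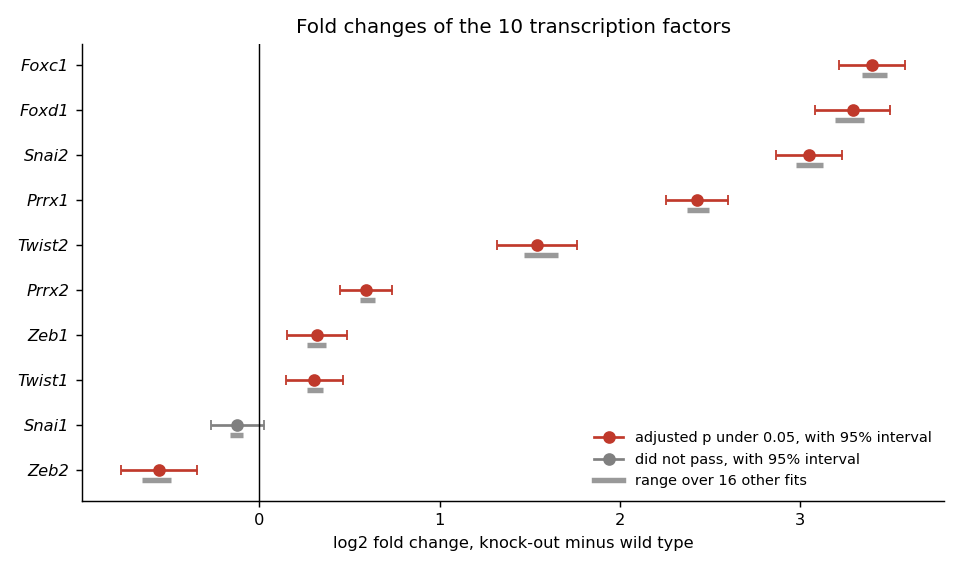
Log2 fold change of each factor (knock-out minus wild type, x axis), with its 95% interval, and as a grey bar the range of the estimate over 16 other fits of the same arrays. The 5 factors from Twist2 (1.54) to Foxc1 (3.40) lie beyond 1, and Snai1 is the one whose interval spans 0.

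Within each of the 4 paralog pairs the genes changed by different amounts. The difference between the log2 fold changes was −1.23 for Twist1 minus Twist2, −3.17 for Snai1 minus Snai2, 0.88 for Zeb1 minus Zeb2 and 1.83 for Prrx1 minus Prrx2. Taken on each array, Snai1 minus Snai2 averaged −3.71 ± 0.0346 in knock-out and −0.54 ± 0.218 in wild-type cells (SD, n = 3 each). Only the change in such a difference can be read, because probe sets of different genes differ in brightness for reasons other than RNA amount. The genotypes did not overlap in any of the 4 differences. The exact permutation test, two-sided, gave p = 0.10 for each pair (0.10 also after adjustment over the 4 pairs), which is the smallest that 3 arrays against 3 allow.

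**Figure D3:**
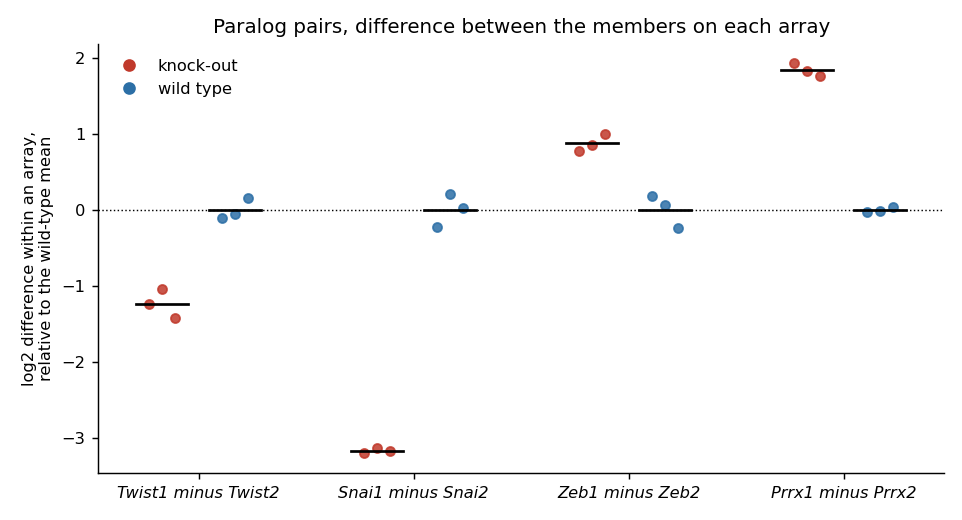
Difference in log2 value between the genes of each paralog pair on each array, set relative to the wild-type mean of that pair, with knock-out arrays (red) left of wild-type arrays (blue) and black lines at the means. The knock-out arrays lie lowest for Snai1 minus Snai2 (−3.17) and highest for Prrx1 minus Prrx2 (1.83).

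The miR-200 family is known to hold Zeb1 and Zeb2 down in epithelial cells through sites in their mRNAs, and its seeds show how its members fall into sets that recognise different sites. Mature sequences from RefSeq (GRCm38.p6) are given 5′ to 3′ with the seed, bases 2 to 8, in capitals. They fall into a set with the seed of miR-200b and a set with the seed of miR-200a.
miR-200b-3p: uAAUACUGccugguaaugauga
miR-200c-3p: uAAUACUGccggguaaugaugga
miR-429-3p: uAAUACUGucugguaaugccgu
miR-200a-3p: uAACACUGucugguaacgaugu
miR-141-3p: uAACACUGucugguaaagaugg

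Probe sets for their precursor RNAs lay under background in both genotypes. Mir200b averaged 4.69 ± 0.066 in knock-out and 4.80 ± 0.0691 in wild-type cells, and Mir200c averaged 4.72 ± 0.0986 in knock-out and 4.69 ± 0.0378 in wild-type cells (SD, n = 3 each). None of the 5 precursors measured (Mir200a, Mir200b, Mir200c, Mir141 and Mir205, a further regulator of the Zeb genes) passed the limma test, and none had an unadjusted p under 0.05 there. The arrays measure precursors and say nothing of the mature miRNAs. Mir429 was not analysed here.

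Promoter windows from RefSeq (GRCm38.p6, 250 bases before to 50 after the start) were matched for 8 of the 10 factors. Each was searched on both strands for CAGGTG, the E-box that Snail and Zeb factors prefer, for the E-boxes CAGATG and CATATG, and for the forkhead motif GTAAACA. Of 32817 windows of the same length, 20.2% held CAGGTG, 17.2% CAGATG, 3.92% CATATG and 3.65% GTAAACA. Among the members only the Snai1 window held a match, which is CAGGTG read on the opposite strand, starting at base −126 from the gene's start. The Snai1 window is shown because it holds that match (capitals), and those of Foxc1 and Prrx1 because these factors rose together yet differ in base composition.
Snai1, chr2:167537945-167538244, plus strand: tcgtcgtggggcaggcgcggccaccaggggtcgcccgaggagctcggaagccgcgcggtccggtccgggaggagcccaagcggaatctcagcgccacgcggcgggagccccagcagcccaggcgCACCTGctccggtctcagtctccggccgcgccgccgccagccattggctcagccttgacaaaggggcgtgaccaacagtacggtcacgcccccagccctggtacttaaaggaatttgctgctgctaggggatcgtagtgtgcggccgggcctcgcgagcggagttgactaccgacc
Foxc1, chr13:31806396-31806695, plus strand: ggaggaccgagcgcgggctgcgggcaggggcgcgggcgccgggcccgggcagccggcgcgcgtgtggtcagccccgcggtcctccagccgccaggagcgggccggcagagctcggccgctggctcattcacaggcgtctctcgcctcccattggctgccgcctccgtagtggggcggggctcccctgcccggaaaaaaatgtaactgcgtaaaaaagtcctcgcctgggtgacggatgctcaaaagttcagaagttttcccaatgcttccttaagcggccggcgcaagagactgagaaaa
Prrx1, chr1:163313601-163313900, minus strand: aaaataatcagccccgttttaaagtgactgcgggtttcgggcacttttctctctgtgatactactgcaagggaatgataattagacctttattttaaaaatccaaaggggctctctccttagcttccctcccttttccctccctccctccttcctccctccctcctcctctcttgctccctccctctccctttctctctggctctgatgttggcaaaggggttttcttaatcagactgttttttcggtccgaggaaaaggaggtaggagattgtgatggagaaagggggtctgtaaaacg

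The Foxc1 window held 32 CG dinucleotides and 67.3% G and C, the Prrx1 window 6 and 47.7%, and the Snai1 window 34 and 70%, against medians of 7 and 52.7% over all windows. Among factors at least 2-fold higher, the windows of Foxd1 (15 CG dinucleotides) and Twist2 (25) lay between those of Prrx1 and Foxc1.

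Rises among the partners and inhibitors of Twist were mainly those of the inhibitors, the Id genes, while the E protein partners moved in both directions. Of 9 bHLH partners and Id proteins 4 rose and 2 fell (66.7% called, against 31.6% of all genes), with a median log2 fold change of 0.02. The E protein gene Tcf4 rose by 0.71 (SE 0.08, limma adjusted p = 4.4e-05), while the E protein genes Tcf3 (−0.27) and Tcf12 (−0.23) fell. The call of Tcf12 was lost, leaving 1 lower gene, when any 1 of 4 arrays was left out (knock-out replicates 2 and 3, wild-type replicates 1 and 2; adjusted p = 0.089 to 0.12). Id proteins, which bind E proteins and keep them from DNA, rose for Id1 (1.35, SE 0.11), Id2 (1.34, SE 0.20) and Id3 (0.88, SE 0.11). Without moderation of the variances Id2 did not pass (adjusted p = 0.051). Id4 averaged 5.25 in knock-out and 5.33 in wild-type cells, under background.

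Co-repressors through which Snail and Zeb factors act shifted by small amounts, mostly downward. Of 19 measured 3 rose and 10 fell (68.4% called, against 31.6% of all genes), none of them at least 2-fold, with a median of −0.20. Without knock-out replicate 3 or wild-type replicate 1 there was 1 rise. Ctbp2, a partner of Zeb1 and Zeb2, fell by 0.45 on the log2 scale (SE 0.07), its paralog Ctbp1 differed by −0.058 (limma adjusted p = 0.57), and Kdm1a, a histone demethylase that Snai1 recruits, fell by 0.41. Limd1, a LIM protein of the Ajuba family, fell by 0.45. Rnf2, a subunit of Polycomb complex PRC1, rose by 0.48.

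Regulators of protein stability, which set Snail, Twist and Zeb levels after translation, gave 1 rise and 5 falls of 16. That is 37.5% called against 31.6% of all genes, with 31.25% lower against 17.6% and 6.25% higher against 14%. There were 7 falls with arrays centred on their medians. Lats2, a Hippo pathway kinase reported to stabilise Snail protein in human cells, rose by 0.69 (SE 0.07). The ubiquitin ligase subunit Fbxw7 fell by 0.44 (by 0.26 with its probe sets averaged), Usp9x, a deubiquitinase, by 0.40 and Fbxo11, which acts on Snail proteins, by 0.29. The genes of Gsk3b, the kinase that marks Snai1 for destruction, and Btrc, the ligase subunit that then binds it, did not pass (0.058 with adjusted p = 0.54 and −0.17 with adjusted p = 0.078, limma), though Btrc passed with arrays centred on their medians (−0.20, adjusted p = 0.043). These are RNA levels, and protein was not measured.

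Genes of signals known to induce these factors in other cells were called often, in both directions. Of 23 measured 13 rose and 6 fell (82.6% called, against 31.6% of all genes), with a median of 0.27. At least 2-fold, 6 rose and 1 fell, against 3.05% and 2.27% of all genes, and the lowest log2 fold change was −1.35. The ligand gene Tgfb3 rose by 2.31 (SE 0.08), the Notch ligand gene Jag1 by 2.20 (SE 0.09) and the receptor gene Egfr by 1.67 (SE 0.08). Hgf, which encodes the ligand of the Met receptor, rose by 1.58 (SE 0.08), with means of 6.20 in knock-out and 4.61 in wild-type cells, the wild-type mean under background.

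Other transcription factors of mesoderm and mesenchyme were called about as often as all genes, but a larger share of them changed at least 2-fold. Of 38 measured 6 rose and 7 fell (34.2% called, against 31.6% of all genes), with a median of 0.026, and 24 lay under background in both genotypes. Of all 19938 genes 8264 did so. Foxc2, the nearest paralog of Foxc1 and like it a factor of paraxial and cranial mesenchyme, averaged 9.58 ± 0.204 in knock-out and 5.30 ± 0.142 in wild-type cells (SD, n = 3 each). Its log2 fold change was 4.28 (SE 0.11, limma adjusted p = 7.8e-10). Six2, a factor of nephron progenitors and facial mesenchyme, rose by 5.25 (SE 0.10) and Eya2, which encodes a cofactor of Six2 and its relatives, by 2.23 (SE 0.07). The cardiac mesoderm factor Tbx20 fell by 2.96 on the log2 scale (SE 0.16). Background limits these folds, since Foxc2 and Six2 lay under it in wild-type cells and Tbx20 in knock-out cells. Rises and falls of at least 2-fold numbered 5 and 4 of the 38, against 3.05% and 2.27% of all genes.

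Epithelial genes, a list of known targets of Snail and Zeb repression and of factors of the epithelial state, were mostly under background. Of 35 measured 24 lay under background in both genotypes, 9 fell and 1 rose, with a median of −0.066. That is 28.6% called against 31.6% of all genes, with 25.7% lower against 17.6% and 2.86% higher against 14%. Over all 19938 genes 8264 lay under background in both genotypes. The rise was at least 2-fold (highest log2 fold change 1.01), as were 4 of the falls. At that size 3.05% of all genes were higher and 2.27% lower. The largest falls were those of desmosome and keratin genes. Pkp2, a desmosomal plakophilin, averaged 5.50 ± 0.143 in knock-out and 9.38 ± 0.033 in wild-type cells (SD, n = 3 each; log2 fold change −3.88, SE 0.08, limma adjusted p = 1.5e-10). Dsp, or desmoplakin, fell by 2.40, Krt19 by 1.77 and Jup, or plakoglobin, by 1.47 on the log2 scale. Pkp2, Dsp and Krt19 lay under background in knock-out cells, which limits their folds.

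Cdh1, the gene of E-cadherin, had a mean of 5.24 ± 0.109 in knock-out and 6.11 ± 0.101 in wild-type cells (SD, n = 3 each) and fell by 0.87 on the log2 scale (SE 0.08, limma adjusted p = 1.2e-05). The wild-type level was thus little above background. Epcam averaged 4.81 in knock-out and 5.03 in wild-type cells, under background in both. Its log2 fold change of −0.22 passed (limma adjusted p = 0.028), and the call was lost when any 1 of 4 arrays was left out (knock-out replicates 2 and 3, wild-type replicates 1 and 3; adjusted p = 0.076 to 0.096). Ocln, a tight junction gene, averaged 4.67 in knock-out and 4.71 in wild-type cells and did not pass.

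Genes of the mesenchymal state rose more often than they fell. The wild-type level was already high for Vim, Fn1 and Cdh2, but not for the 4 genes with the largest rises. Of 28 measured 16 rose and 4 fell (71.4% called, against 31.6% of all genes), with a median of 0.24. At least 2-fold, 12 rose and 1 fell, against 3.05% and 2.27% of all genes. Mmp2, a gelatinase, rose by 6.13 (SE 0.09), the collagen receptor kinase gene Ddr2 by 5.88 (SE 0.10), Postn, or periostin, by 5.77 (SE 0.09) and the type I collagen gene Col1a2 by 5.30 (SE 0.10). Their wild-type means were 6.18, 6.02, 6.36 and 6.85 in that order, against a background level of 5.67. Vim, the intermediate filament gene most used as a sign of EMT, averaged 13.52 ± 0.0464 in knock-out and 13.53 ± 0.0777 in wild-type cells (SD, n = 3 each). That difference did not pass (log2 −0.011, limma adjusted p = 0.93). Fn1, or fibronectin, averaged 13.56 in knock-out and 12.90 in wild-type cells and rose by 0.66 (SE 0.06). Cdh2, the gene of N-cadherin, which often rises during EMT and is also the main cadherin of neural progenitors, averaged 10.44 ± 0.0668 in knock-out and 12.39 ± 0.0533 in wild-type cells. It fell by 1.95 on the log2 scale (SE 0.06, limma adjusted p = 5.0e-09).

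**Figure D4:**
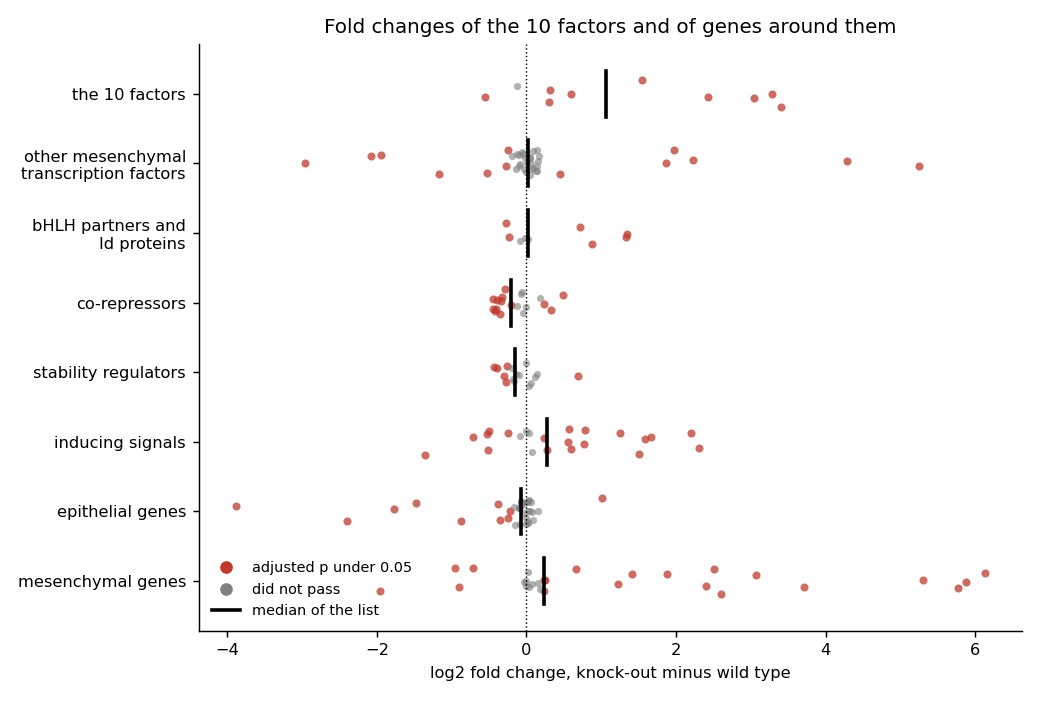
Log2 fold change (knock-out minus wild type, x axis) of every measured gene in each group named on the left, red where the adjusted p was under 0.05 and grey where it was not, with the median as a black line. The 10 factors have a median of 1.07, the epithelial genes reach down to −3.88 and the mesenchymal genes up to 6.13. Markers of cell types are not drawn.

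The genes with profiles most like those of the forkhead factors were found by the root mean square difference of gene-centred log2 values over the 6 arrays. Nearest to Foxc1 were Dact1 (0.082), an antagonist of Wnt signalling, the Wnt receptor gene Fzd4 (0.083), the aminopeptidase gene Enpep (0.090), Hoxa2 (0.10) and the transporter gene Abca9 (0.11). Nearest to Foxd1 were Aff3 (0.10), Zfp618 (0.11), Abca9 (0.12), Hs6st2 (0.13), which encodes a heparan sulfate sulfotransferase, and Pon3 (0.15). With 2 genotypes and 3 arrays of each, likeness here is mainly likeness of fold change, which ran from 3.20 for Pon3 to 3.49 for Fzd4, and background limits the folds of all but Fzd4, Hs6st2 and Pon3, whose wild-type means lay above it.

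Markers of cell types that could hold these factors were read beside them, and their part in the results was not tested. Over all genes 31.6% were called. The share was 73.3% for meninges and fibroblasts, 50% for pericytes and smooth muscle and 46.7% for neural progenitors. It was 40% for neural crest and for endothelium and 30% for neurons. By direction, 14% of all genes were higher and 17.6% lower. For neural crest 40% were lower and 0% higher. For endothelium 30% were higher and 10% lower, and for neurons 10% were higher and 20% lower. Of 15 markers of meninges and fibroblasts 10 rose and 1 fell, and their summed level (antilog of the log2 values) was 14880 to 17405 on knock-out and 5823 to 7302 on wild-type arrays. The marker that fell did so at least 2-fold, and the lowest log2 fold change of this list was −1.16. Col1a2, Thy1 (3.72), Pdgfra (3.06) and Crabp2 (3.05) led this list, while Aldh1a2 and Slc6a13 lay under background in both genotypes. Thy1, Pdgfra and Crabp2 lay under it in wild-type cells, as did the endothelial Erg and Tek, so that background limits their folds. Of 10 neural crest markers 4 fell and none rose, led by Ets1 (−0.92) and Msx2 (−0.79), with sums of 1074 to 1156 on knock-out and 1596 to 1715 on wild-type arrays. Sox10, Tfap2b, Ngfr, Msx1 and Foxd3 were under background in both. Without knock-out replicate 3, 1 neural crest marker rose.

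Of 10 pericyte and smooth muscle markers 4 rose and 1 fell, led by the calponin gene Cnn1 (4.65), with sums of 15189 to 16672 on knock-out and 11838 to 13495 on wild-type arrays. Des, Kcnj8, Abcc9 and Myh11 lay under background in both genotypes, and 2 mural markers fell without wild-type replicate 2. Of 10 endothelial markers 3 rose and 1 fell, led by Erg (4.60) and Tek (3.14), with sums of 1462 to 1625 on knock-out and 316 to 351 on wild-type arrays. The defining endothelial genes Pecam1, Cdh5, Cldn5, Tie1 and Emcn were under background in both, as were Kdr and Esam. The fall is that of Kdr, which was not called without knock-out replicate 1 or 3, and 2 markers fell without wild-type replicate 3. All 8 microglial markers were under background in both genotypes and none passed (sums of 224 to 230 on knock-out and 225 to 232 on wild-type arrays). Of 10 neuron markers 1 rose, Map2 (0.90), and 2 fell (4 with the replicate block), with sums of 2251 to 2450 on knock-out and 1465 to 1592 on wild-type arrays, and 7 lay under background in both. Map2 averaged 10.95 in knock-out and 10.05 in wild-type cells and makes up most of these sums. The median log2 fold change of the neuron list was −0.086. The neural progenitor markers summed to 4604 to 4671 on knock-out and 8211 to 9252 on wild-type arrays, with Prom1 and Gfap under background in both.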

How the data were processed

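RNA of 3 knock-out and 3 wild-type samples was measured on 1-colour arrays, and the genotype and replicate number of each were taken from its title. Trizol was used for the extraction, and 250 ng of total RNA went into each biotinylated cDNA, per the labels' protocols. The authors deposited 1 log2 value per probe set, as judged from the range. The submitters' processing notes name Partek. For background correction, normalization and probe summary, methods were not given in the sources used here. Precision is limited by the number of arrays.

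Of 35556 probe sets 21789 had 1 gene symbol, 1621 several and 12146 none, and 21698 matched the RefSeq gene table (GRCm38.p6) by gene ID. For a gene with several probe sets the one with the highest mean was kept, which left 19938 genes. The test was that of limma 3.58.1 (R 4.3.3) with lmFit, eBayes and no covariate, with Benjamini-Hochberg adjustment over all genes. Called genes have an adjusted p under 0.05. At an unadjusted p under 0.05 there were 7720. The steps were tested on simulated data.

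The 10 members and the 15 other lists were chosen with earlier results of these data known. Named besides the members were the 4 largest changes that passed in each list, genes a list's role turns on, the 5 genes most like each of the 2 members with the largest changes, and genes that check the labels. Across genes, deviations from the mean of a genotype correlated at 0.19 to 0.29 for equal replicate numbers and at −0.18 to −0.0047 for unequal ones. The labels state no pairing. Deviations within a genotype cancel out for each gene, so positive correlations for equal numbers bring negative ones for unequal numbers with them. The numbers may mark pairs, which these values do not settle, and the block on them is given as an alternative.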

Additional observations from a re-analysis of the deposited data

How the results depend on the processing

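Under 18 alternatives (quantile normalization, median centring, 2 filters on dim genes, 2 treatments of several probe sets, array weights, no moderation, an intensity trend with robust moderation, the replicate block, each of the 6 arrays left out, and 2 thresholds) no member and no other named gene that was called changed direction. All 10 members stayed in the test under both filters. With a log2 fold change of at least 1 also required, 5 members were higher and 0 lower, and 1061 genes were called, 608 higher and 453 lower. Without moderation 7 members were higher, since Zeb1 did not pass, and Id2, Tcf12, Epcam, Gap43, Erbb3, Kdr and Des lost their calls as well. Under the other settings 8 members were higher and 1 lower. Leaving out single arrays moved the count of genes called between 5485 and 5803, and 8 members stayed higher. With the replicate block 7000 genes were called, 6279 of them shared with the 6296 of the fit without it. The block changed the call of no member. It added calls of Lgi1 (adjusted p = 0.046) and Tubb3 (adjusted p = 0.042, and 0.015 without knock-out replicate 3), which reads 4.81 in knock-out and 5.09 in wild-type cells, and gave 4 lower neuron markers against 2. The paralog differences kept their sign in every setting in which they were computed.

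Over the 83 other named genes 1407 of 1461 values kept their side of the threshold, 47 lost the call and 7 gained it. For the 2-fold requirement, the counts of lists that moved by over 1.5 times were 2 higher bHLH genes against 4 and 0 lower against 2, 0 co-repressors in either direction against 3 higher and 10 lower, and 0 stability regulators against 1 and 5. They were also 6 higher and 1 lower inducing signals against 13 and 6, 4 lower epithelial genes against 9, 1 lower mesenchymal gene against 4 and 4 lower mesenchymal factors against 7. Among markers they were 0 lower neural crest genes against 4, 2 higher mural genes against 4 with 0 lower against 1, 0 lower endothelial genes against 1, 0 neuron genes against 1 higher and 2 lower, and 1 higher progenitor gene against 2. Above the median level 4 epithelial genes and 4 mesenchymal factors were lower, since fewer genes were tested. The remaining settings that moved a count so far gave 1 lower bHLH gene against 2 (no moderation, adjusted p under 0.01 and 4 single arrays left out), 1 higher co-repressor against 3 (no moderation, adjusted p under 0.01, without knock-out replicate 3 or wild-type replicate 1), 0 or 2 lower endothelial and mural genes against 1, 1 higher neural crest gene against 0 without knock-out replicate 3, 1 higher progenitor gene against 2, and 0 or 1 lower neuron genes against 2. Signal over background limits what can be called for genes under 5.67.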
